A study of Mus musculus with 14 samples.

Results

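The unfolded protein response and the integrated stress response are described here in mouse liver through 32 genes, out of 24983 with a count in these libraries. The genes were taken from a list of names that was chosen with earlier results of these data known. By role they form a chaperone arm of 14 genes, 4 genes of ER-associated degradation, 4 genes of the stress sensors and their transcription factor, and an ATF4 arm of 10 genes. Of the 32, 31 passed the filter on low counts and were tested; Phgdh, an enzyme of serine synthesis, did not. The recipients ate a high-fat diet, and liver RNA was sequenced. The first group (transplant, n = 6, titled iBAT 2x) had received a silk scaffold carrying cells of the stromal fraction of brown fat, pre-adipocytes that had been differentiated. The second group (empty scaffold, n = 8, titled Sham-WT) had received such a scaffold with no cells. Strain, age, time after surgery and the meaning of 2x are not given in the labels. Whether each sample came from its own animal is not stated either, so p-values here reflect only how far these samples spread.

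The endoplasmic reticulum (ER) folds the proteins that a cell secretes or puts into its membranes, and hepatocytes secrete most plasma proteins. When unfolded proteins build up, 3 sensors in the ER membrane respond. ATF6 is cut and enters the nucleus, IRE1 (gene Ern1) splices the mRNA of the transcription factor XBP1, and PERK (gene Eif2ak3) phosphorylates the translation factor eIF2alpha. ATF6 and XBP1 act mainly on genes of folding and degradation. Phosphorylated eIF2alpha lowers most translation but raises that of ATF4, which acts on genes of amino acid supply and of stress feedback, and which other eIF2alpha kinases can reach without ER stress. The mRNA level of a sensor does not show its activity, since the proteins are switched on by cutting, splicing or phosphorylation.

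Of the 31 tested genes, 1 rose and none fell. The gene that rose was Herpud1, an ER membrane protein of the degradation machinery, at an adjusted p under 0.05 (edgeR, quasi-likelihood F test, Benjamini-Hochberg over 13131 genes). That is 3.23% of the genes tested here, against 7.54% of all tested genes called in either direction (3.31% of all tested genes were called higher and 4.23% lower in transplant livers). The share is not above the background. At an unadjusted p under 0.05 there were 9 of the 31 (29.0%), against 30.0% of all tested genes. DESeq2 called 6 of the 31, namely Herpud1, Xbp1, Manf, Creld2, Chac1 and Eif2ak3. That share is above the 15.0% of all tested genes called by DESeq2, and whether it differs from that was not tested. For none of the 31 were the CPM values (counts scaled to a common library size) of the groups apart without overlap, which held for 1.27% of all tested genes.

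The arms did not have the same sign throughout. In the chaperone arm 13 of 14 log2 fold changes (transplant minus empty scaffold) were above 0, with a median of 0.22. In the ATF4 arm 4 of 9 were above 0, with a median of -0.05, and among the sensors and Xbp1 1 of 4, with a median of -0.29. The degradation genes had a median of 0.04, with 3 of 4 above 0. Over all tested genes 47.1% were above 0 and the median was -0.02. In bulk tissue, fewer cells of a type and less RNA per cell cannot be told apart.

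**Figure D1:**
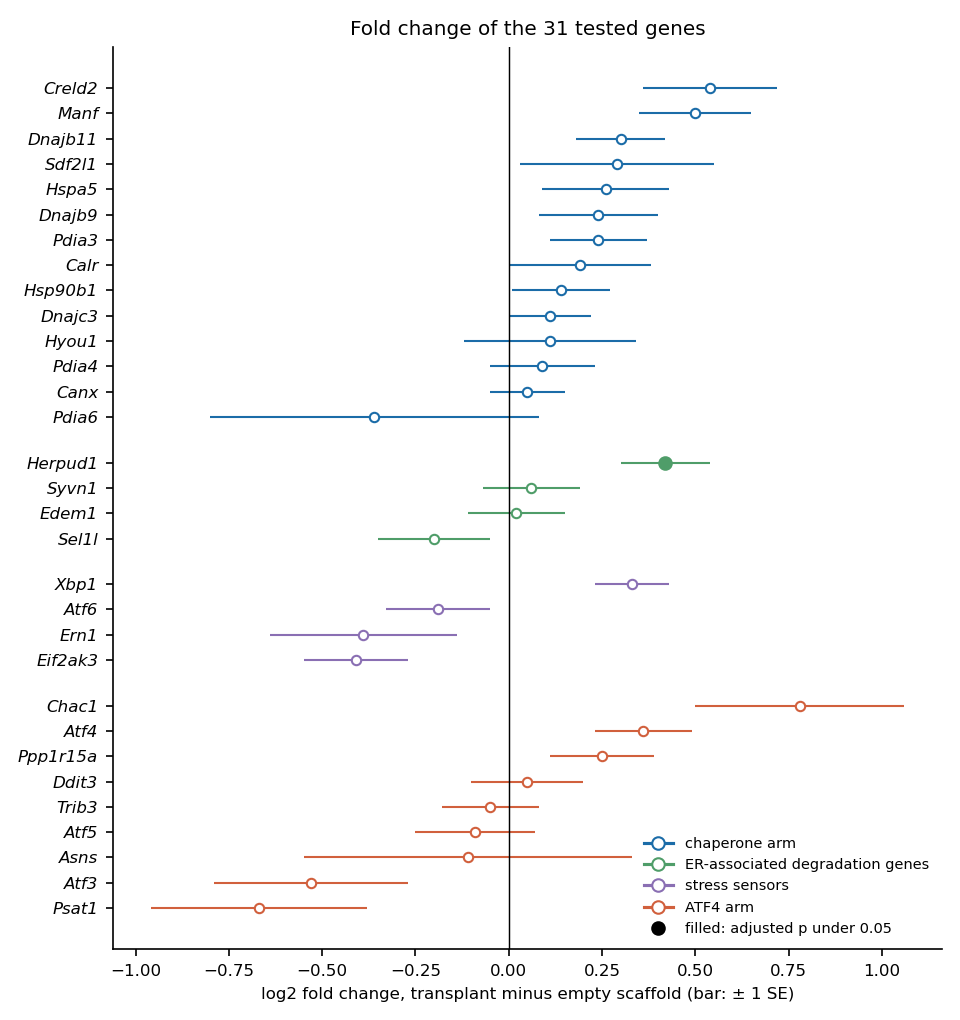
The log2 fold change of each of the 31 tested genes, transplant minus empty scaffold (x axis), by arm, from the edgeR fit; bars are ± 1 standard error and a filled point marks an adjusted p under 0.05. Herpud1 is the filled point, at 0.42; 13 of the 14 chaperone genes lie right of 0, and the ATF4 arm spans -0.67 (Psat1) to 0.78 (Chac1).

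The libraries held 22898793 to 28910968 estimated counts in transplant livers and 19482580 to 28723928 in empty scaffold livers. The summed level of 8 hepatocyte markers was 94500 to 144000 CPM in transplant livers and 78700 to 144000 CPM in empty scaffold livers. Of these 8, 1 rose (Serpina1c, log2 fold change 0.68, adjusted p = 0.0353), and 7 log2 fold changes were above 0 with a median of 0.19, beside 13 of 14 and 0.22 in the chaperone arm. Of 11 Kupffer cell markers 5 fell, with sums of 155 to 234 CPM in transplant livers and 198 to 469 CPM in empty scaffold livers. Of 10 stellate cell and fibroblast markers 5 fell (116 to 243 CPM in transplant, 151 to 351 CPM in empty scaffold), and of 8 endothelial markers 2 fell (90.6 to 136 CPM and 121 to 189 CPM). Beside these counts, 3.31% of all tested genes were called higher and 4.23% lower in transplant livers. The sums of 10 markers of plasma and B cells, which hold much ER, were 134 to 222 CPM in transplant livers and 131 to 212 CPM in empty scaffold livers. Most of that was Sdc1, which hepatocytes also make, with a median of 150 CPM in transplant livers and 161 CPM in empty scaffold livers. Jchain had a median of 1.97 CPM in transplant livers and 1.35 CPM in empty scaffold livers (log2 fold change 0.66, adjusted p = 0.0981), the other 8 were under 1 CPM in both medians, and Tnfrsf17 was at 0; 0 of the 4 tested were called, with 1 at an unadjusted p under 0.05 and 0 by DESeq2. Of 5 tested cholangiocyte markers 0 were called (0 at an unadjusted p under 0.05 and 0 by DESeq2), and of 6 pancreatic acinar markers Cela1 rose while the other 5 had a median of 0 in both groups. With the trends of level on transcript length and GC content removed, 6 of the 11 Kupffer cell markers fell. Of all tested genes, 3.85% were then called in either direction. In that fit 0 of the 10 stellate cell and fibroblast markers and 0 of the 8 endothelial markers were called. Their median log2 fold changes stayed below 0 in it, at -0.58 and -0.26, beside -0.88 and -0.38 in the main fit. Serpina1c (adjusted p = 0.0843) and Cela1 (adjusted p = 0.0843) did not pass in it either. The part of these markers in the results below was not tested. The sample titles carry numbers of unknown meaning, below 100 for 3 transplant and 4 empty scaffold samples and 100 or above for the other 3 and 4. Each range is also given alone below, although within a range the transplant and empty scaffold numbers lie apart. Below 100, 0 of the markers were called, against 0.0231% of all genes. The median log2 fold change of the stellate cell and fibroblast markers was -0.35 below 100 and -1.4 at 100 or above. It was -0.19 and -0.56 for the endothelial markers, and -0.7 and -0.6 for the Kupffer cell markers.

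The arms are known to be driven through short promoter elements, whose letters were searched here; 14 of the 29 genes with a promoter had any match, and 5 of these are printed. RefSeq promoters (build GRCm38.p6, 250 bases before to 50 after the start of each gene) were found for 29 of the 32 genes, as 31 promoters, and were searched on both strands. Atf5 and Psat1 of the ATF4 arm had over 1 promoter each, so the 12 promoters of that arm belong to 10 genes. Hyou1, Manf and Atf6 had none. The ER stress response element (ERSE, the letters CCAAT, then 9 bases of any kind, then CCACG) is bound by ATF6 and XBP1 at CCACG, beside the factor NF-Y at CCAAT. It was found in 7 of 12 chaperone promoters (58.3%), those of Calr, Canx, Creld2, Dnajc3, Hsp90b1, Hspa5 and Pdia6, in that of Syvn1, and in 0 of 12 ATF4 arm promoters, against 0.119% of all 32851 promoters. Its second form (ERSE-II, the letters ATTGG, 1 base of any kind, then CCACG) was found for Herpud1 and Dnajb11, against 0.0365% of all promoters. A further XBP1 and ATF6 element (UPRE, TGACGTGG) was found in 0 of the 31, against 0.676% of all. The element of ATF4 and its C/EBP partners (CARE, TGATGNAAN) was found in 4 of 12 ATF4 arm promoters (33.3%), those of Asns, Atf3, Chac1 and Trib3, and in that of Herpud1, against 3.95% of all. A match is a string of letters and no shown site, and a missing match says nothing of a factor. As these elements were already known to act in the arms, the shares beside all promoters are description and no independent support.

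The 250 bases before the start follow for Hspa5 (chr2:34771840-34772089 on the plus strand), Creld2 (chr15:88819396-88819645 on the plus strand), Herpud1 (chr8:94386179-94386428 on the plus strand), Asns (chr6:7693210-7693459 on the minus strand) and Chac1 (chr2:119350992-119351241 on the plus strand), each 5′ to 3′ on the strand of the gene. Capitals mark the ERSE in Hspa5 and, on the opposite strand, in Creld2; the CARE in Asns and, on the opposite strand, in Chac1; and in Herpud1 the CARE on the opposite strand followed by the ERSE-II. The ERSE of Hspa5 began 65 bases before the start, and that of Creld2 126 bases before it. The CARE of Asns began 23 bases before the start and that of Chac1 194 bases before it. Herpud1 carried both kinds, the CARE 113 and the ERSE-II 52 bases before the start, without overlap.
Hspa5: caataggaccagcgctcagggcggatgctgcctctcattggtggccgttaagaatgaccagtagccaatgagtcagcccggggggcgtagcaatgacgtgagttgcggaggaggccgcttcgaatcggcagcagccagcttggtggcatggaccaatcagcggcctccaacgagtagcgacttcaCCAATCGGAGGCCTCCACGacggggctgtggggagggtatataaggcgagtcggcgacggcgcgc
Creld2: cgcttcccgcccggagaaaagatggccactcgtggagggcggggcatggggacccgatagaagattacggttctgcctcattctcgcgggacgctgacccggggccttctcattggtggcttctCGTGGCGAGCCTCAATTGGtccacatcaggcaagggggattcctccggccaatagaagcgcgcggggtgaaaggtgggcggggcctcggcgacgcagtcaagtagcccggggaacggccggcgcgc
Herpud1: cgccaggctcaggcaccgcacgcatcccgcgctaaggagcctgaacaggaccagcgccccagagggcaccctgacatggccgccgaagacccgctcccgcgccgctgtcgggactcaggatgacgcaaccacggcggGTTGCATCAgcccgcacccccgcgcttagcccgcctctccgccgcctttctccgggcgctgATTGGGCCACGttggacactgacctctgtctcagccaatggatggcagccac
Asns: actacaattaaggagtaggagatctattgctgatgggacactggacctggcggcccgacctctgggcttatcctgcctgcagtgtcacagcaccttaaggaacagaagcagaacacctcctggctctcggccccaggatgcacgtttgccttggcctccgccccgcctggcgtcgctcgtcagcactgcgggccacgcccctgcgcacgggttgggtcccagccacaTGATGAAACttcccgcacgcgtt
Chac1: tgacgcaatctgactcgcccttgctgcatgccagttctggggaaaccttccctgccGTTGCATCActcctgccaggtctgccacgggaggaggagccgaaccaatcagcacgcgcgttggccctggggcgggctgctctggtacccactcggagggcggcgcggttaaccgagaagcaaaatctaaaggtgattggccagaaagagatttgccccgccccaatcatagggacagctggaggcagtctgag

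The chaperone arm holds the proteins that fold and retain new chains in the ER. Measured per length, as TPM within a group, some of its genes were among the most abundant of the 32. Their means in transplant livers reached down to 4.02 TPM for Pdia6, below Herpud1 (239 TPM), Atf5 (133 TPM) and Xbp1 (75.1 TPM) of the other groups of genes. Calr (calreticulin, a lectin chaperone that holds calcium) stood at 397 ± 125 TPM in transplant livers and 471 ± 120 TPM in empty scaffold livers (SD, n = 6 and 8), followed by Hspa5 (means of 304 and 350 TPM) and Hsp90b1 (242 ± 59.1 and 303 ± 73.0 TPM). The spreads of these neighbours over the libraries overlapped, and their order within each library was not tested. TPM values served for order within a group only, because their median log2 ratio over all tested genes was -0.47.

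Hspa5 encodes BiP, the main ER chaperone of the Hsp70 class, which also holds the sensors inactive. Its CPM ran over 542 to 1050 in transplant livers (mean 690 ± 194, SD, n = 6) and over 450 to 852 in empty scaffold livers (577 ± 130, n = 8). All 6 transplant livers lay above the empty scaffold median, but the groups overlapped over most of their range, and 1 liver of each group stood high. The log2 fold change was 0.26 ± 0.17 (SE; adjusted p = 0.307), and 0.10 without transplant replicate 3. With the title numbers below 100 it was 0.18, and with those of 100 or above 0.32.

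Manf and Creld2 had the largest log2 fold changes of the arm. Manf, a small secreted protein that binds BiP, had 90.8 to 128 CPM in transplant livers (111 ± 16.6, n = 6) and 52.1 to 106 CPM in empty scaffold livers (78.8 ± 19.7, n = 8), a log2 fold change of 0.50 ± 0.15 (adjusted p = 0.0546). Every transplant liver lay above the empty scaffold median, and the lowest of them lay below the highest empty scaffold livers. Creld2, a secreted ER protein with disulfide isomerase activity, had 28.4, 37.7 and 57.2 CPM (lowest, median, highest) in transplant livers and 17.7, 25.7 and 42.0 CPM in empty scaffold livers, a log2 fold change of 0.54 ± 0.18 (adjusted p = 0.0661). Again each of the 6 transplant livers was above the empty scaffold median and the groups overlapped. Neither gene passed the threshold. Both passed it without empty scaffold replicate 7 (adjusted p = 0.0273 for Manf and 0.0453 for Creld2), Manf also without replicate 6 (0.0485) and Creld2 without replicate 2 (0.0356) of the same group. With the trends of transcript length and GC content removed, the log2 fold change of Manf was 0.24 (adjusted p = 0.293) and that of Creld2 0.43 (adjusted p = 0.234).

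Among the J-domain partners of BiP, Dnajb11 had a log2 fold change of 0.30 ± 0.12 (adjusted p = 0.102, and 0.0419 without empty scaffold replicate 7). Dnajb9, which also recruits BiP to IRE1, had 40.1, 56.3 and 71.3 CPM in transplant livers and 30.0, 47.0 and 61.1 CPM in empty scaffold livers. These ranges overlapped in most livers, and the log2 fold change was 0.24 ± 0.16 (adjusted p = 0.316). For Dnajc3, which also restrains PERK, it was 0.11 ± 0.11 (adjusted p = 0.510). Sdf2l1, which binds BiP together with J-domain proteins, had 0.29 ± 0.26 (adjusted p = 0.461). Hyou1, the large chaperone that exchanges nucleotide on BiP, had 0.11 ± 0.23 (adjusted p = 0.767), and -0.08 without transplant replicate 3. Hsp90b1, the ER form of Hsp90, had 0.14 ± 0.13 (adjusted p = 0.485).

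Of the disulfide isomerases, Pdia3 had a log2 fold change of 0.24 ± 0.13 (adjusted p = 0.231) and Pdia4 one of 0.09 ± 0.14 (adjusted p = 0.671). Pdia6 stood apart, at 5.71, 8.64 and 13.5 CPM in transplant livers and 1.82, 9.12 and 26.7 CPM in empty scaffold livers, a 14.7-fold span over the 14 libraries. Its log2 fold change, the single one below 0 in the arm, was -0.36 ± 0.44 (adjusted p = 0.608). Why Pdia6 was low and uneven was not tested, and some listed transcripts matched no gene of the annotation used, so its values are uncertain. The other chaperone genes spanned 1.40-fold (Canx) to 4.80-fold (Sdf2l1). The lectin chaperones Calr and Canx (calnexin), which bind N-glycans, had log2 fold changes of 0.19 ± 0.19 (adjusted p = 0.499) and 0.05 ± 0.10 (adjusted p = 0.747). In all, 0 of the 14 chaperone genes passed the test, with 3 at an unadjusted p under 0.05 and 2 called by DESeq2.

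**Figure D2:**
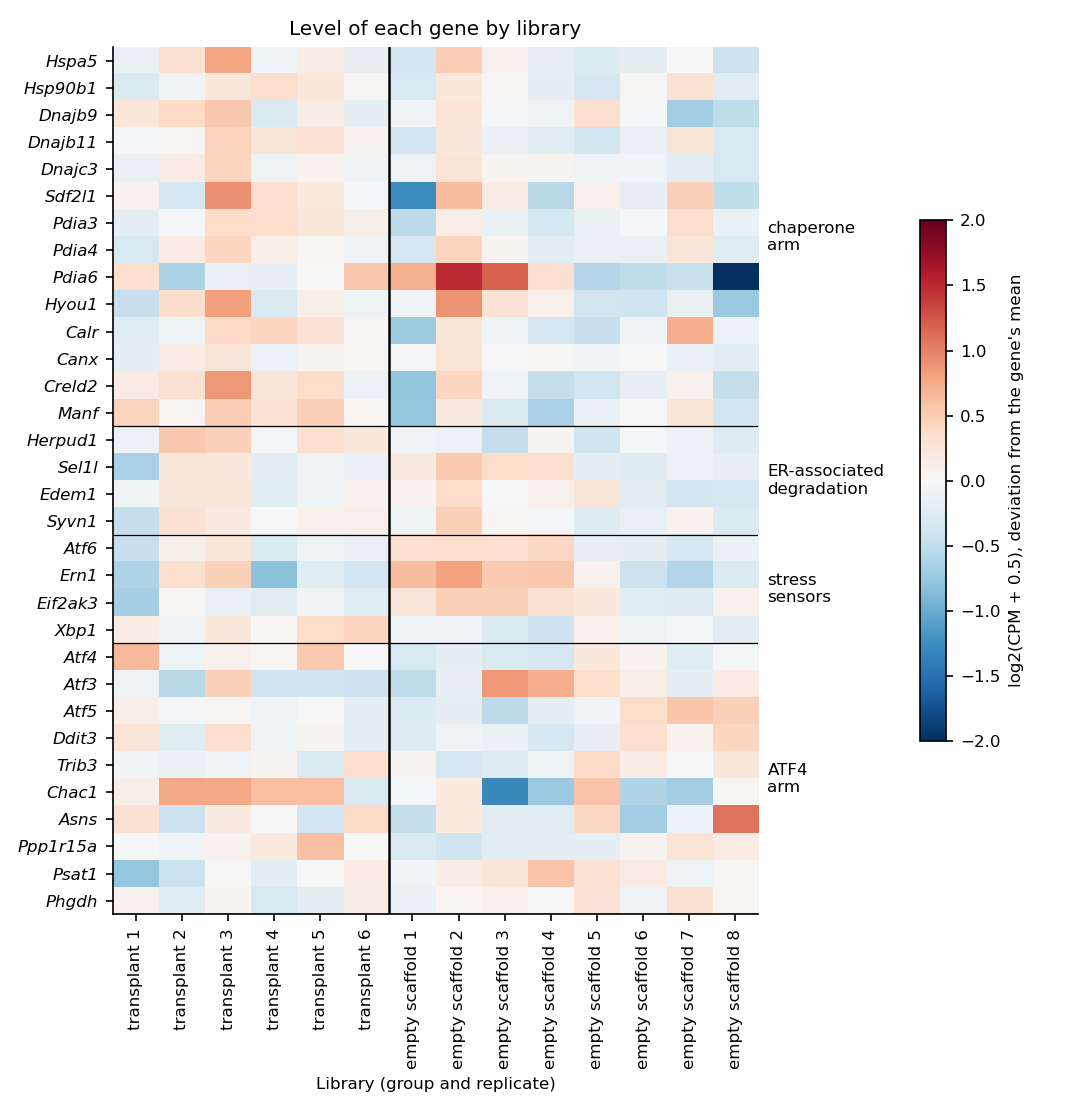
Level of each of the 32 genes (rows, by arm) in each of the 14 libraries (columns, transplant left of the line and empty scaffold right of it), as log2(CPM + 0.5) minus the mean of the gene over all libraries; red is above and blue below that mean. Most chaperone genes are red together in transplant replicate 3 and in empty scaffold replicate 2, and blue together in empty scaffold replicates 1 and 8.

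Single libraries were high or low for many chaperone genes at once, in both groups. Transplant replicate 3 was the highest library for 8 of the 14 and empty scaffold replicate 2 for 4. Empty scaffold replicate 1 was the lowest for 7 and replicate 8 for 5. The mean deviation of the arm, on the log2 scale, was -0.05, 0.07 and 0.49 (lowest, median, highest) in transplant livers and -0.47, -0.16 and 0.44 in empty scaffold livers, so the highest liver of each group was about as high as that of the other. No p is given for such sums.

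The degradation genes carry misfolded chains back to the cytosol. Herpud1, which binds the HRD1 ubiquitin ligase complex and is itself short-lived, had 375, 490 and 589 CPM in transplant livers and 294, 375 and 425 CPM in empty scaffold livers. It was above the empty scaffold median in 5 of 6 transplant livers, and the groups overlapped in their middle range. Its log2 fold change was 0.42 ± 0.12 (edgeR, adjusted p = 0.0461), and 0.37 with title numbers below 100 and 0.46 with those of 100 or above. The call was close to the threshold: it held without transplant replicate 4 or empty scaffold replicates 6 or 7, and was lost without any one of the other 11 libraries, at adjusted p-values of 0.0524 to 0.0965 and log2 fold changes of 0.35 to 0.47. With the length and GC trends removed the log2 fold change was 0.40 (adjusted p = 0.0838).

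The other degradation genes did not pass the test. Syvn1, the HRD1 ligase itself, had a log2 fold change of 0.06 ± 0.13 (adjusted p = 0.768), Sel1l, its cofactor, -0.20 ± 0.15 (adjusted p = 0.401), and Edem1, which trims mannose from misfolded glycoproteins, 0.02 ± 0.13 (adjusted p = 0.917). The sign for Edem1 turned without transplant replicate 2 (-0.02) or 3 (-0.02) or empty scaffold replicate 6 (-0.01), 7 (-0.03) or 8 (-0.02), and that for Sel1l when the length and GC trends were removed (0.09).

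The sensor genes and Xbp1 had log2 fold changes of opposite sign. Xbp1, the transcription factor whose mRNA IRE1 splices, had 146 to 206 CPM with a median of 174 in transplant livers, and a median of 144, a highest value of 164 and a mean of 140 ± 15.7 CPM (SD, n = 8) in empty scaffold livers. Each of the 6 transplant livers exceeded the empty scaffold median, and the groups overlapped between the lowest transplant and the highest empty scaffold liver. Xbp1 thus had a log2 fold change of 0.33 ± 0.10 (adjusted p = 0.0548), 0.34 with title numbers below 100 and 0.32 with those of 100 or above. It passed the threshold with the length and GC trends removed (0.34, adjusted p = 0.0490), and without transplant replicate 2 (0.0480), empty scaffold replicate 5 (0.0347) or empty scaffold replicate 7 (0.0413). The share of spliced Xbp1 was not analysed here. In the annotation used, no Xbp1 transcript has the 26 bases removed that IRE1 cuts out, and some listed transcripts matched no gene of it.

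Eif2ak3, the gene of PERK, had 6.29, 8.99 and 10.4 CPM in transplant livers and 8.52, 12.1 and 14.5 CPM in empty scaffold livers. Each of the 6 transplant livers lay below the empty scaffold median, and the groups overlapped. Its log2 fold change was -0.41 ± 0.14 (adjusted p = 0.0736), and the call was made without empty scaffold replicate 6 (0.0428) or 7 (0.0332). Ern1 had a log2 fold change of -0.39 ± 0.25 (adjusted p = 0.304) and Atf6 one of -0.19 ± 0.14 (adjusted p = 0.373). In all, 0 of the 4 passed, with 2 at an unadjusted p under 0.05 and 2 called by DESeq2.

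The transcripts of the sensors are long, at 7246 bases for Atf6, 6946 for Ern1 and 4513 for Eif2ak3, against 2129 for Xbp1, 1366 for Creld2 and 960 for Manf (the transcript with most counts of each). Levels also moved with transcript length by library, by -0.293 to 0.0176 log2 units per doubling of length in transplant livers and by -0.0973 to 0.250 in empty scaffold livers. The 4 empty scaffold libraries with title numbers of 100 or above stood apart at 0.198 to 0.250, and the other 10 libraries lay at -0.293 to 0.0176. The median log2 fold change of the 4 genes was -0.05 with title numbers below 100 and -0.44 with those of 100 or above; the part of the slopes was not tested. After removal of the length and GC trends the log2 fold change was 0.10 for Atf6, -0.04 for Ern1 and -0.15 for Eif2ak3 (adjusted p = 0.365), and the median of the 4 was 0.03. The sign of Atf6 turned, while Xbp1 kept its value. In that fit 3.85% of all genes were called, and Xbp1 was the single one of the 31 genes.

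**Figure D3:**
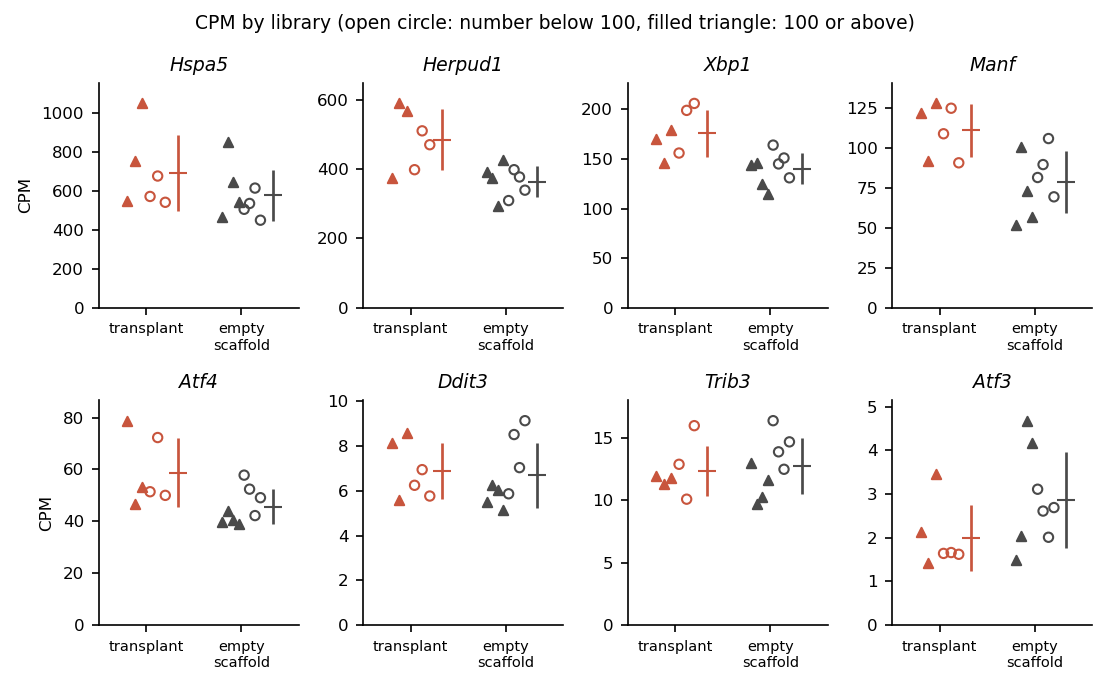
CPM of 8 genes in each library (points; open circles have title numbers below 100, filled triangles 100 or above), transplant left and empty scaffold right, with the mean and SD of the group beside them. Herpud1, Xbp1 and Manf sit higher in transplant livers with some overlap, whereas Ddit3 and Trib3 cover about the same range in both groups.

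The ATF4 arm begins with the transcription factors. Atf4 had 46.6, 52.3 and 78.8 CPM in transplant livers and 39.0, 43.1 and 57.8 CPM in empty scaffold livers. All 6 transplant livers were above the empty scaffold median, of which 4 lay within the empty scaffold range. Atf4 had a log2 fold change of 0.36 ± 0.13 (adjusted p = 0.0845, and 0.0463 without empty scaffold replicate 5). Because ATF4 is made mainly through translation, its mRNA level is only one part of its supply. Atf5, a relative of ATF4 that is abundant in liver, had a log2 fold change of -0.09 ± 0.16 (adjusted p = 0.725). Atf3, an early stress factor, had 1.43, 1.65 and 3.45 CPM in transplant livers and 1.50, 2.65 and 4.68 CPM in empty scaffold livers. Its values were low in 5 of 6 transplant livers and in some of the other group, and the log2 fold change was -0.53 ± 0.26 (adjusted p = 0.186).

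Ddit3 and Trib3, which mark a lasting stress response, had ranges that overlapped almost fully between the groups. Ddit3, the gene of CHOP, a factor that promotes cell death under long ER stress, had 5.59, 6.60 and 8.57 CPM in transplant livers and 5.14, 6.15 and 9.14 CPM in empty scaffold livers. The ranges covered each other, and the estimate was a log2 fold change of 0.05 ± 0.15 (adjusted p = 0.855). Trib3, a pseudokinase that CHOP and ATF4 induce, had 10.1, 11.9 and 16.0 CPM in transplant livers and 9.75, 12.7 and 16.4 CPM in empty scaffold livers, a log2 fold change of -0.05 ± 0.13 (adjusted p = 0.826). The sign for Ddit3 turned without transplant replicate 1 (-0.01) or 3 (-0.03) or empty scaffold replicate 4 (0.00), and that for Trib3 without replicate 5 of the transplant (0.00) or the empty scaffold group (0.01). Ppp1r15a, the phosphatase subunit GADD34 that ends eIF2alpha phosphorylation, had 6.86, 7.53 and 11.2 CPM in transplant livers and 5.39, 6.30 and 8.75 CPM in empty scaffold livers. All 6 transplant livers lay above the empty scaffold median, the groups overlapped, and the log2 fold change was 0.25 ± 0.14 (adjusted p = 0.222).

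Chac1, which breaks down glutathione, had the largest log2 fold change of the 31, 0.78 ± 0.28 (adjusted p = 0.0881, and 0.0353 without empty scaffold replicate 5). Its CPM was 2.75, 5.50 and 6.28 in transplant livers and 1.12, 2.72 and 5.36 in empty scaffold livers. Every transplant liver exceeded the empty scaffold median, though empty scaffold values reached well into the transplant range. Asns, which makes asparagine, shares the CARE letters with Chac1, as printed above, and was near the detection limit at 0.286, 0.617 and 0.874 CPM in transplant livers and 0.150, 0.440 and 1.74 CPM in empty scaffold livers. Its log2 fold change was -0.11 ± 0.44 (adjusted p = 0.888), 0.04 without transplant replicate 2, 0.02 without transplant replicate 5 and 0.31 without empty scaffold replicate 8, which holds the highest value. Psat1, of serine synthesis, had 0.152, 0.525 and 0.743 CPM in transplant livers and 0.532, 0.746 and 1.15 CPM in empty scaffold livers (-0.67 ± 0.29, adjusted p = 0.135). That value was -0.09 (adjusted p = 0.877) with effective length offsets, -0.21 with title numbers below 100 and -1.20 with those of 100 or above. Phgdh, the first enzyme of that path, averaged 0.154 ± 0.0913 CPM in transplant livers and 0.226 ± 0.0837 CPM in empty scaffold livers (SD, n = 6 and 8) and was not tested. In all, 0 of the 9 tested genes passed, with 3 at an unadjusted p under 0.05 and 1 called by DESeq2.

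**Figure D4:**
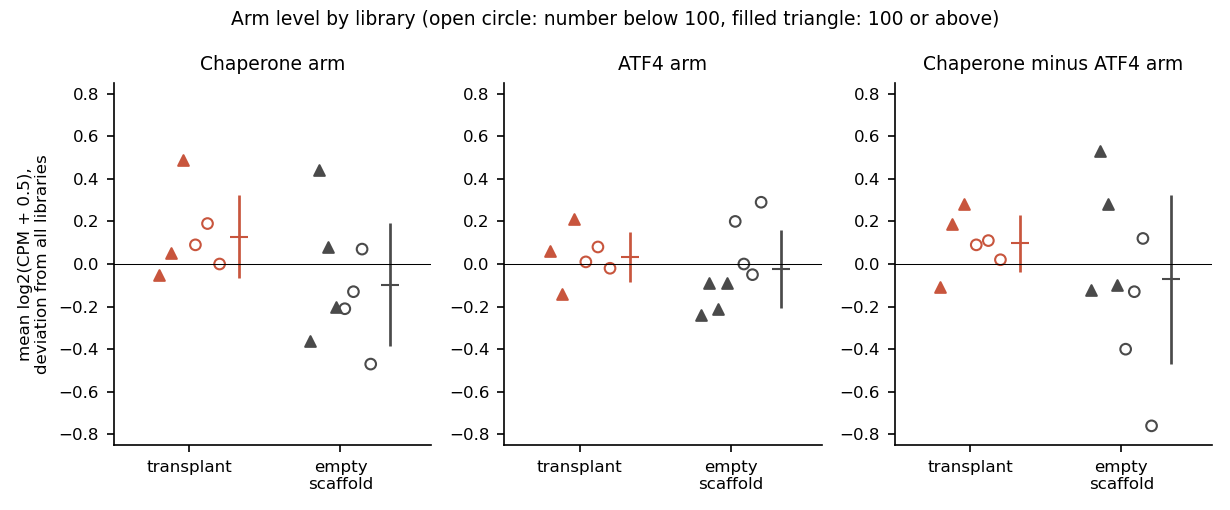
Mean over the tested genes of an arm of log2(CPM + 0.5), as deviation from the mean of all 14 libraries (y axis), for the chaperone arm, the ATF4 arm and their difference in each library; symbols as in the plot of CPM by library, with the mean and SD of the group beside. The difference covers -0.11 to 0.28 in transplant livers and -0.76 to 0.53 in empty scaffold livers, the widest spread being within the empty scaffold group.

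Set against each other within a library, the arms showed a wider spread among empty scaffold livers than between the group medians. The mean deviation of the ATF4 arm was -0.14, 0.03 and 0.21 in transplant livers and -0.24, -0.07 and 0.29 in empty scaffold livers. The chaperone arm minus the ATF4 arm was -0.11, 0.10 and 0.28 in transplant livers (SD 0.14) and -0.76, -0.11 and 0.53 in empty scaffold livers (SD 0.40). All transplant values lay inside the empty scaffold range. With title numbers below 100 the difference was 0.02 to 0.11 in transplant livers and -0.76 to 0.12 in empty scaffold livers; with those of 100 or above it was -0.11 to 0.28 in transplant livers and -0.12 to 0.53 in empty scaffold livers.

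The median of the ATF4 arm had opposite signs in the ranges of title numbers, a difference that was not tested for the arm. The median log2 fold change of the chaperone arm was 0.20 below 100 and 0.25 at 100 or above, whereas that of the ATF4 arm was -0.21 below 100 and 0.32 at 100 or above. With title numbers below 100, 0 of the 31 genes were called, against 0.0231% of all genes; at an unadjusted p under 0.05 there were 6 of the 31 (19.4%), against 9.31% of all genes, and DESeq2 was not run within a range. With those of 100 or above, where the length slopes of the empty scaffold libraries stand apart as given above, 2 of the 31 rose, against 14.5% of all genes, and 2 fell, against 11.5%; both shares are below the background. Manf (0.69, adjusted p = 0.0441) and Atf4 (0.55, adjusted p = 0.0389) rose, and Eif2ak3 (-0.65, adjusted p = 0.0210) and Pdia6 (-1.13, adjusted p = 0.0323) fell, the last with the uncertainty given above. Below 100 the log2 fold changes were 0.32 for Manf, 0.20 for Atf4, -0.14 for Eif2ak3 and 1.01 for Pdia6. With the range as a covariate 6 of the 31 were called, against 19.6% of all genes; Herpud1, Xbp1, Manf, Creld2 and Atf4 were higher and Eif2ak3 lower in transplant livers.

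Among the 31 genes, the smallest interaction p-values of group and range were those of Atf5 and Pdia6. They are shown because of these p-values, so how far their groups lie apart within a range is description only. The share of all genes with groups apart within a range was not computed. Pdia6 had 8.18 to 13.5 CPM in transplant livers and 1.82 to 6.62 CPM in empty scaffold livers below 100, where the groups did not overlap. At 100 or above it had 5.71 to 11.7 CPM in transplant livers and 11.6 to 26.7 CPM in empty scaffold livers, nearly apart in the other direction. The log2 fold changes were 1.01 and -1.13, and the interaction of group and range had an adjusted p of 0.176 in edgeR's test. Atf5 had 306 to 343 CPM in transplant livers and 327 to 507 CPM in empty scaffold livers below 100, against 335 to 373 CPM and 239 to 306 CPM at 100 or above. Its log2 fold changes were -0.43 and 0.32 (interaction, adjusted p = 0.176). For Ddit3 they were -0.27 and 0.38 (interaction, adjusted p = 0.205). By edgeR's interaction test 0 of 13131 genes were called, so these contrasts did not pass the adjustment; at an unadjusted p under 0.05 there were 2275 of all genes (17.3%) and 4 of the 31 (12.9%), and DESeq2 was not run for the interaction.

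**Figure D5:**
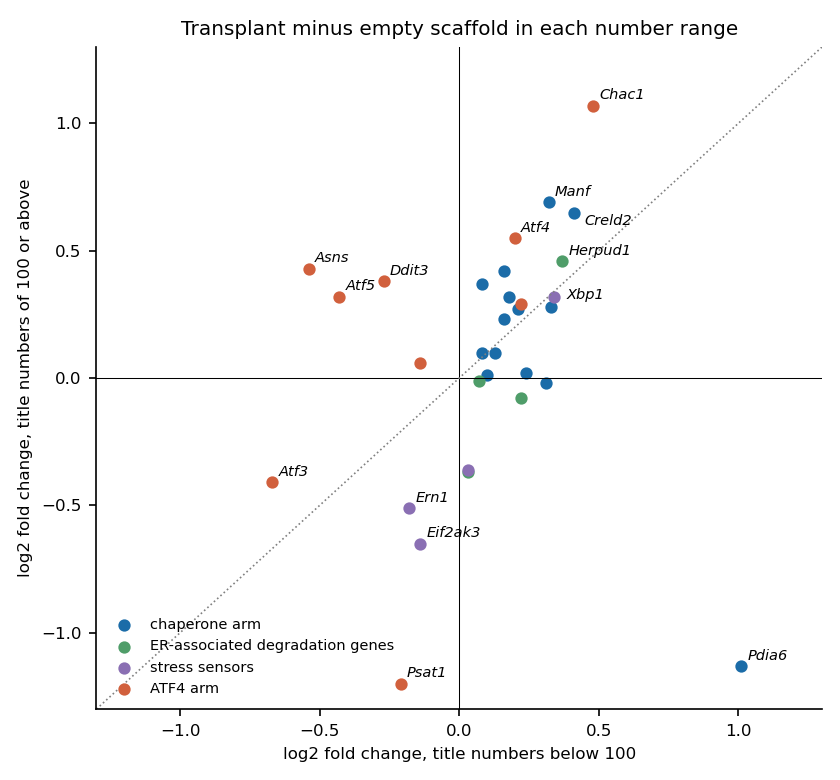
The log2 fold change, transplant minus empty scaffold, of each tested gene with title numbers below 100 (x axis, 3 and 4 libraries) and of 100 or above (y axis, 3 and 4 libraries), coloured by arm; the dotted line marks equal values. Most chaperone genes lie in the upper right, Pdia6 at 1.01 and -1.13, and Atf5, Ddit3 and Asns in the upper left.

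Other genes of the same pathways, 121 tested, gave 4 that rose and 2 that fell (4.96%), against 7.54% of all tested genes. Of 20 other genes of ER-associated degradation 1 rose and none fell, and 17 log2 fold changes were above 0 (median 0.09). At an unadjusted p under 0.05 there were 7 (35.0%), against 30.0% of all tested genes. The gene that rose was Selenos, a selenoprotein that holds the p97 ATPase at the ER membrane. It had 50.6 ± 8.52 CPM in transplant livers and 37.0 ± 4.94 CPM in empty scaffold livers (log2 fold change 0.45 ± 0.11, adjusted p = 0.0299). Of 14 genes of oxidative folding, 13 of them above 0 (median 0.18), 1 rose, Prdx4, the ER peroxiredoxin that uses hydrogen peroxide to form disulfides, with 81.3 ± 9.38 CPM in transplant livers and 55.4 ± 13.7 CPM in empty scaffold livers (0.55 ± 0.14, adjusted p = 0.0347). Of 20 genes of translocation and signal peptide removal, 16 of them above 0 (median 0.18), 2 rose. They were Ssr4 (0.48 ± 0.12, adjusted p = 0.0350), a subunit of the TRAP complex at the translocon, and Sec61g (0.53 ± 0.14, adjusted p = 0.0353), a subunit of the channel itself. With the length and GC trends removed none of the 4 remained past the threshold, at log2 fold changes of 0.20 (adjusted p = 0.191) for Selenos and 0.32 (adjusted p = 0.0629) for Prdx4, and adjusted p-values of 0.0691 for Ssr4 and 0.259 for Sec61g.

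Of 8 ER membrane transcription factors and their proteases 2 fell, and 2 log2 fold changes were above 0 (median -0.09). With the length and GC trends removed the median was 0.13, and 1 of the 8 fell. Creb3l1, a relative of ATF6 that drives collagen genes in bone-forming cells, had 0.880 ± 0.336 CPM in transplant livers and 1.89 ± 0.703 CPM in empty scaffold livers (log2 fold change -1.11 ± 0.28, adjusted p = 0.0333). Creb3l2 had 10.8 ± 1.55 CPM in transplant livers and 14.2 ± 2.13 CPM in empty scaffold livers (-0.40 ± 0.12, adjusted p = 0.0492, and -0.08 with adjusted p = 0.683 once the trends were removed). Of the 10 stellate cell and fibroblast markers, 5 fell as well, against 4.23% of all tested genes, and 5 did not pass the test. Once the trends were removed 0 of these markers were called, while their median log2 fold change stayed at -0.58. The part of these cells was not tested.

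On the translation side, 0 of 13 other eIF2 kinases and eIF2 factors were called, with 6 at an unadjusted p under 0.05 (46.2%) and 1 by DESeq2. For these and the lists that follow, the shares of all tested genes were 30.0% at an unadjusted p under 0.05 and 15.0% by DESeq2. Of the 13, 9 were above 0 (median 0.14). The smallest p was that of Eif2b5, a subunit of the exchange factor of eIF2 (0.22 ± 0.08, adjusted p = 0.0917). Of 21 tested among 24 other ATF4 targets 0 were called, with 7 at an unadjusted p under 0.05 (33.3%) and 2 by DESeq2. Of the 21, 10 were above 0 (median -0.02). The smallest p there was that of Gdf15, a stress hormone, with 8.23 ± 3.91 CPM in transplant livers and 14.1 ± 3.36 CPM in empty scaffold livers (-0.78 ± 0.24, adjusted p = 0.0550). Of 11 tRNA synthetases of the ATF4 programme 0 were called, with 1 at an unadjusted p under 0.05 (9.09%) and 0 by DESeq2. Of the 11 log2 fold changes, 1 was above 0 (median -0.11), and the smallest p was that of Lars (-0.28 ± 0.10, adjusted p = 0.0896). That median was -0.01 with the length and GC trends removed, -0.02 with title numbers below 100 and -0.21 with those of 100 or above. Of 14 genes of N-glycosylation and the lectin cycle 0 were called, with 2 at an unadjusted p under 0.05 (14.3%) and 0 by DESeq2. Of the 14, 8 were above 0 (median 0.06). The smallest p was that of Mcfd2, a cargo receptor subunit (0.28 ± 0.11, adjusted p = 0.107).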

How the data were processed

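Liver RNA of 14 samples was sequenced from stranded mRNA libraries, per the labels' protocols. The submitters' processing notes list the read trimmer fastp 0.20, the transcript quantifier kallisto 0.46.1, DESeq2 1.38 and the genome build GRCm39, without saying what each did. Per the file headers, every transcript has 2 lengths (full and effective), its TPM and its estimated count. The estimated counts were deposited without normalization. The deposited TPM keep no depth and entered no test. The effective lengths, deposited as another quantity per transcript, served an alternative offset only.

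Each file lists 128803 transcripts. Gene membership came from GENCODE M21, an annotation of GRCm38, which matched 120661 of them (93.7%). Estimated counts were summed per gene and rounded. Genes were filtered with filterByExpr, scaled by TMM and tested with the quasi-likelihood F test of edgeR 4.0.16 (R 4.3.3, robust, two-sided, group as the only term), with Benjamini-Hochberg adjustment over all 13131 genes. The standard error is the log2 fold change divided by the root of the F statistic. CPM are on TMM-scaled libraries, and intervals beyond SD and SE were not computed. The self-test of the fit used simulated counts.

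Alternatives were DESeq2 1.42.0, its size factors in edgeR, other filters, the range of title numbers as covariate or alone, effective length offsets, splines (4 degrees of freedom) on length and GC content, and leaving out each library. Replicate numbers follow accession order and pair nothing. The 32 genes, their arms, the other pathway lists and the markers were chosen with earlier results of these data known. The genes named with values in every group are all 32, plus up to 4 called genes of each further list, or the one with the smallest p where none was called; the markers Serpina1c, Sdc1, Jchain, Tnfrsf17 and Cela1 were named after their values were seen. Counting could split reads between near-identical transcripts: 13.4% of the 31-base words of Hsp90b1, 15.8% of Phgdh and 13.1% of Ddit3 also occur in other gene entries, against 0.932% for Pdia6. The entry sharing most with Hsp90b1 had a mean estimated count of 83.0, beside 14830 for Hsp90b1. For Ddit3 it was another entry of the same name, with 0.053 beside 165.6. For Phgdh it had 0.357 beside 4.786. ER retention signals in proteins were not analysed here.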

Additional observations from a re-analysis of the deposited data

Results flagged for a closer look

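In 64 groups of values (32 genes in each treatment group), 4 had a single library far from the others by Dixon's criterion, which flags about 1 in 20 groups by chance. Atf3 reached 3.45 CPM in transplant replicate 3, and the next transplant liver had 2.13 CPM. Ppp1r15a reached 11.2 CPM in transplant replicate 5, where the next transplant liver had 8.33 CPM. Canx had 302 CPM in empty scaffold replicate 2, above 254 CPM in the next liver of that group. Syvn1 had 71.9 CPM in the same library, above 54.8 CPM in the next. Transplant replicate 3 was also the highest of all libraries for 8 chaperone genes, and empty scaffold replicate 2 for 4.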

How the results depend on the processing

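Counts of calls depended on the model. Under DESeq2's test 1965 genes were called, with the number range as covariate 2576, below 100 alone 3, at 100 or above alone 3487, with effective length offsets 316 and with length and GC trends removed 505; leaving out 1 library gave 138 to 1910. Among the 31 genes 6 were called by DESeq2, 6 with the covariate, 4 at 100 or above, 2 with trends removed and the covariate together, and 0 with no filter, below 100 or with effective length offsets (0 to 6 without 1 library). Without empty scaffold replicate 7 it was 6, and without replicate 5 or 6 of that group 3. Chaperone calls were 2 by DESeq2, with the covariate and at 100 or above, and 1 with trends removed and the covariate (0 to 3 without 1 library). The single degradation call was 0 with no filter, in either range alone, with effective length offsets and with trends removed, with or without the covariate (0 to 1 without 1 library). Sensor calls were 2 by DESeq2 and with the covariate, and 1 at 100 or above and with trends removed, with or without the covariate (0 to 2). ATF4 arm calls were 1 by DESeq2, with the covariate and at 100 or above (0 to 2). Calls of the other pathway lists were 15 by DESeq2, 29 with the covariate, 1 below 100, 35 at 100 or above, 0 with effective length offsets and 12 with trends removed and the covariate (0 to 24).

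The median log2 fold change with trends removed was 0.27 for the degradation genes and 0.03 for the sensors, both also with the covariate. For the ATF4 arm it was -0.21 below 100 and 0.32 at 100 or above. Without 1 library the medians ranged over 0.10 to 0.28 (chaperone arm), 0.00 to 0.11 (degradation genes), -0.36 to -0.22 (sensors) and -0.09 to 0.12 (ATF4 arm), the last without empty scaffold replicate 8.

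Signs turned below 100 for Pdia6 (1.01), Sel1l (0.03), Atf6 (0.03) and Ddit3 (-0.27). They turned at 100 or above for Hyou1 (-0.02), Edem1 (-0.01), Syvn1 (-0.08), Atf5 (0.32), Trib3 (0.06) and Asns (0.43). With trends removed they turned for Sel1l (0.09), Atf6 (0.10) and Ddit3 (-0.16), and with the covariate added for Sel1l (0.09), Atf6 (0.10), Ddit3 (-0.17) and Trib3 (0.00). Effective length offsets turned Canx (-0.01) and Asns (0.43). Without 1 library the signs of Hyou1 (-0.08 to 0.29), Edem1 (-0.03 to 0.08), Ddit3 (-0.03 to 0.12), Trib3 (-0.14 to 0.01) and Asns (-0.26 to 0.31) turned. The causes were not tested.

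No paired analysis was possible because the labels pair no samples, and replicate numbers follow accession order. The share of spliced Xbp1 and the search for ER retention signals were not run.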
